A study of Rattus norvegicus with 10 samples.

Results

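The genes described here are 62 stellate cell and extracellular matrix genes of rat liver, out of 12555 genes in the deposited table. They were chosen by a rule on names and not on values, though with earlier results of these data known. The rule takes every symbol of the form of a collagen chain, a laminin chain, a tissue inhibitor of metalloproteinases or a lysyl oxidase. It adds 16 further genes named one by one. By role they divide into 9 fibrillar collagens, 16 basement membrane collagens and laminins, 14 other collagens, 8 cross-linking and elastic fibre genes, 6 matrix glycoproteins and small proteoglycans, 2 metalloproteinase inhibitors and 7 genes of mesenchymal cells. RNA was sequenced in 10 wild-type rat liver libraries. Of these, 5 belong to a diet with 30% fewer calories kept up through gestation (restricted 1 to 5) and 5 to a normal diet (normal 1 to 5). The restricted libraries carry the prefix SGA in the table, after the small-for-gestational-age condition of the series title, and the comparison asks how the livers of that model differ from those of normal growth. Sex, age, litter and pooling of animals are not given in the labels.

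Hepatic stellate cells lie between hepatocytes and the endothelium of the sinusoids, where they store vitamin A as retinyl esters. When they are activated after injury they turn into contractile myofibroblasts that secrete fibrillar collagen, and this is the main source of scar in liver fibrosis. Healthy liver has little fibrillar matrix, a thin and discontinuous basement membrane along the sinusoids, and ordinary basement membranes around vessels and bile ducts. Hepatocytes contribute too: they secrete plasma fibronectin and are known to express collagen XVIII.

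Library totals ran from 14936156 to 22104957 counts. The labels give hepatocytes as the cell type and a hepatocyte line as the source, whereas the design text speaks of liver tissue. Alb, serum albumin, had 120837 ± 22846 CPM in restricted and 116971 ± 15264 CPM in normal libraries (SD, n = 5 each; CPM are counts scaled to a common library total). The libraries also held RNA of other liver cells, and the 17 further stellate cell markers summed to 834 to 935 CPM in restricted and 875 to 1048 CPM in normal libraries. The 13 sinusoidal endothelial markers summed to 767 to 867 CPM in restricted and 787 to 858 CPM in normal libraries. The 11 Kupffer cell markers, of liver macrophages, summed to 1030 to 2559 CPM in restricted and 929 to 1205 CPM in normal libraries, with the high values in restricted 2 (1974 CPM) and restricted 5 (2559 CPM). All 11 had a positive log2 fold change, 7 at an unadjusted p under 0.05 (63.6%, against 20.1% of all genes), and 0 passed in edgeR. DESeq2 called 4 of the 11 (36.4%, against 8.48% of all genes), among them Cd5l, C1qb and C1qa (adjusted p 0.0404, 0.0379 and 0.0451). In edgeR with Kdm5d as a covariate 3 were called (27.3%, against 0.978% of all genes), among them Cd5l (log2 fold change 1.36, adjusted p 0.0420). Among the restricted libraries only restricted 5 had Kdm5d counts, so the diet term of that fit rests mainly on this library. For restricted 5 alone against the normal libraries the log2 fold changes of Cd5l, C1qb and C1qa were 1.35, 1.37 and 1.29. Smooth muscle and portal fibroblast markers summed to 366 to 522 CPM in restricted and 407 to 628 CPM in normal libraries, and those of bile duct cells to 31.2 to 38.4 CPM in restricted and 32.6 to 39.5 CPM in normal libraries. Mesothelial markers summed to 21.8 to 56.0 CPM in restricted and 13.2 to 63.9 CPM in normal libraries. In such bulk RNA, fewer cells of a type and less RNA per cell cannot be told apart. Kdm5d, a gene of the Y chromosome, had 309 counts in restricted 5, 0 counts in restricted 1 to 4 (with 0 counts the level could still reach 0.134 to 0.207 CPM) and 280 to 392 counts in the normal libraries. Cyp2c13 and Cux2, liver genes listed with Kdm5d as sex-biased, divided the libraries the same way. Cyp2c13 had 1.29 to 8.29 CPM in restricted 1 to 4, 1035 CPM in restricted 5 and 154 to 2203 CPM in normal libraries. Cux2 had 13.6 to 24.0, 1.74 and 1.07 to 5.48 CPM in turn. Cyp2c12, a further such gene, had 2198 to 2714, 298 and 497 to 3050 CPM in turn, with overlap. Whatever divides the libraries by Kdm5d, such as sex, therefore cannot be told apart from diet in 9 of the 10 libraries. Values for restricted 5 against the normal libraries are given where they matter.

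Type IV collagen, the network former of basement membranes, shows how some of these genes are arranged in pairs. Its chains are encoded head to head, and 2 such pairs are in the table. The promoter windows of RefSeq (build GRCr8, 250 bases before to 50 after the start) are shown because the members of a pair read parts of the same DNA from opposite strands. Capitals mark the bases that the windows of a pair share, which read as reverse complements of each other in the lines of one pair.
Col4a1 (chr16:84885347-84885646, plus strand): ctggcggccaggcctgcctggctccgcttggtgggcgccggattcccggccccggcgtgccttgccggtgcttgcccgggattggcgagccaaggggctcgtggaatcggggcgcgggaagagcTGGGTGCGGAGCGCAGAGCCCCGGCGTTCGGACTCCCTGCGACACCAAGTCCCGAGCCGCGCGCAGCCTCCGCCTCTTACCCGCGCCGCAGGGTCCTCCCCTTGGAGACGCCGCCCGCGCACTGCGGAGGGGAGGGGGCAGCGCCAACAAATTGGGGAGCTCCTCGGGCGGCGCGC
Col4a2 (chr16:84885471-84885770, minus strand): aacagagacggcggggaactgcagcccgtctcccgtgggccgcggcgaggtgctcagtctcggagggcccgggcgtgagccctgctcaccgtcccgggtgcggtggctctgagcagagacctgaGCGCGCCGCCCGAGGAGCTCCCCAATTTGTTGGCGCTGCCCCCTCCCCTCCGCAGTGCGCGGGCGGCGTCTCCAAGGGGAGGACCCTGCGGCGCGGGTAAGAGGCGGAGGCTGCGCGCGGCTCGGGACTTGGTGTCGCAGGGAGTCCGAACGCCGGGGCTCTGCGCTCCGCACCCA
Col4a3 (chr9:91323740-91324039, plus strand): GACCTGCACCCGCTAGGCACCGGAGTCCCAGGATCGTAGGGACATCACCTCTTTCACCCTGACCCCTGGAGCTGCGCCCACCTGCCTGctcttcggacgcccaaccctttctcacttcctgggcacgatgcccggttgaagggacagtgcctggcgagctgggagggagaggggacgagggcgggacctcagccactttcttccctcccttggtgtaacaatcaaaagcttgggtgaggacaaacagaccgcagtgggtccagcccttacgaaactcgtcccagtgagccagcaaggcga
Col4a4 (chr9:91323528-91323827, minus strand): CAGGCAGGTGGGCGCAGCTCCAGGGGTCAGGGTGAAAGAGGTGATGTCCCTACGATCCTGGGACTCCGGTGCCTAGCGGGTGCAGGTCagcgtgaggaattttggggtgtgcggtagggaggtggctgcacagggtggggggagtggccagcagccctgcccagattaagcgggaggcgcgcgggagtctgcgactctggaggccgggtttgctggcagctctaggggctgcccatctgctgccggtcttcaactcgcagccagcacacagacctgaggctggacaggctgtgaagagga

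The start sites of Col4a1 and Col4a2 lie 77 bases apart and their windows share 176 bases, whereas those of Col4a3 and Col4a4 lie 413 bases apart and share 88 bases. G and C made up 75.0% and 73.7% of the Col4a1 and Col4a2 windows and 62% and 65.3% of the Col4a3 and Col4a4 windows. The median was 51.7% over all 33469 windows of the table and 61.2% over the 46 windows of 44 of the 62 genes. Each motif was searched on both strands. The GC box GGGCGG occurred 2 times in each window of the Col4a1 pair, 1 time in that of Col4a3 and not in that of Col4a4. In the Col4a1 pair these lie in the shared bases, so both windows hold the same sites. The GC box was in 33.1% of all windows and in 63.0% of those of the 62 genes. CCAAT occurred 2 times in the Col4a1 window and 1 time in that of Col4a2, and in neither window of the other pair. The Col4a2 match lies in the shared bases and is also a match of Col4a1. CCAAT was in 37.5% of all windows and in 32.6% of those of the 62 genes. TATAAA was in none of these 4 windows, in 14.2% of all windows and in 8.7% of those of the 62 genes. A window was at hand for 44 of the 62 genes.

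Levels of the chains of each pair were compared within libraries. Values per gene length are the authors' FPKM, and the ratio is read across libraries only, since its level depends on the lengths they used. Col4a2 over Col4a1 was 0.468, 0.437, 0.473, 0.452 and 0.419 in restricted 1 to 5 and 0.519, 0.482, 0.473, 0.487 and 0.488 in normal 1 to 5. The restricted ratios lay below the normal ones except in restricted 3, which was level with normal 3. Lower ratios were not particular to this pair. Col6a2 over Col6a1, not among the pairs shown here, was 0.317 to 0.413 in restricted and 0.408 to 0.436 in normal libraries. Col4a3 over Col4a4 was 0.546, 0.552, 0.588, 0.895 and 0.986 in restricted 1 to 5 and 0.437 to 0.683 in normal libraries, so that restricted 4 and 5 stood above the rest. Counts differed between the pairs: Col4a3 had 46 to 78 counts in restricted and 39 to 55 counts in normal libraries, and Col4a4 had 142 to 392 counts in restricted and 197 to 270 counts in normal libraries. Col4a1 had 1529 to 3955 counts in restricted and 2110 to 2805 counts in normal libraries, and Col4a2 had 1116 to 2987 counts in restricted and 1768 to 2181 counts in normal libraries. These ratios were singled out after the values were seen and were not tested, and neither was the part of counting error in their spread.

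**Figure D1:**
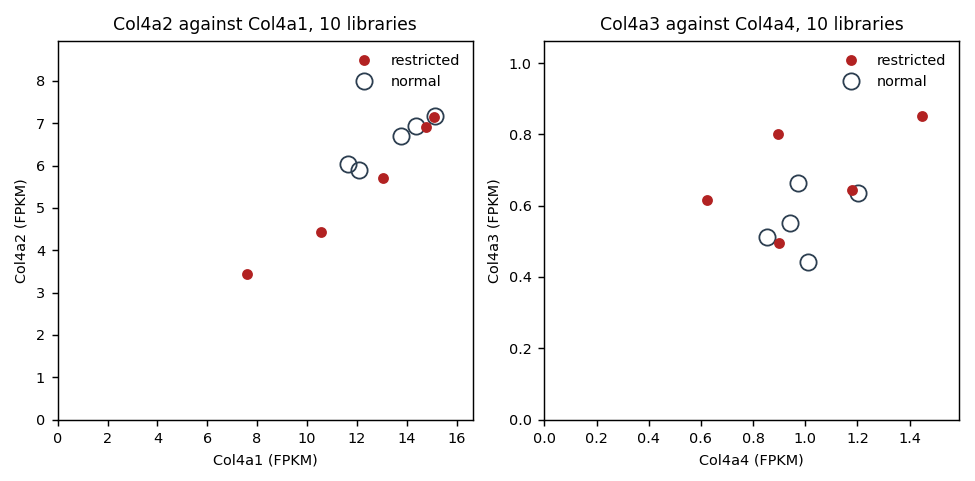
FPKM of Col4a2 against Col4a1 (left) and of Col4a3 against Col4a4 (right), with 1 point per library, filled red for restricted and open dark for normal. The left points follow a line, with ratios of 0.419 to 0.519, and the right ones scatter, with ratios of 0.437 to 0.986.

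No stellate cell or matrix gene passed the test of restricted against normal libraries. All 62 had enough counts to be tested, and 0 of 62 had an adjusted p under 0.05 (edgeR quasi-likelihood test, Benjamini-Hochberg over 12367 genes), against 4.09% of all genes tested. At an unadjusted p under 0.05 there were 15 of the 62, or 24.2%, against 20.1% of all genes, with 4 higher and 11 lower in the restricted group. The share of lower genes was 17.7%, against 9.93% of all genes, and that of higher genes 6.45%, against 10.2%. The log2 fold change of restricted minus normal was negative for 42 and positive for 20, with a median of −0.15 beside 0.01 over all genes. The groups did not overlap in CPM for 3 of the 62 (4.84%), against 6.35% of all genes; these were Fn1, Lamb1 and Col8a2, all lower, against 3.44% of all genes that were lower without overlap. DESeq2 called 4 of the 62, which are Fn1, Eln, Col27a1 and Lama3, all lower (6.45%, against 8.48% of all genes called and 4.34% called lower), and limma-voom called 0, against 3.9% of all genes. The rule of the authors' deposited table, a p under 0.05 with an absolute log2 ratio above 1, was met there by 3 of the 62, namely Col27a1, Col22a1 and Col25a1, and by 3.82% of all genes. In the authors' deposited table the adjusted p was under 0.05 for 4 of the 62, or 6.45%, against 8.48% of all genes: 0.00360 for Fn1, 0.00903 for Eln, 0.00944 for Col27a1 and 0.0302 for Lama3. Of the other genes that met the rule, Col22a1 had an adjusted p of 0.0989 and Col25a1 one of 0.191 in the authors' deposited table.

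Other settings of the edgeR fit left the count at 0 in most cases. It was 0 with RLE scaling (4.06% of all genes called), upper-quartile scaling (4.17%), no filter (4.09%), a filter of 1 CPM in 5 libraries that kept 57 of the 62 (4.2%), and the replicate number as a block (2.14%). With Kdm5d as a covariate, a fit whose diet term rests mainly on restricted 5, 1 gene was called (1.61%, against 0.978% of all genes). Restricted 5 alone against the normal libraries, all with Kdm5d counts, gave 6 calls (9.68%, against 6.49%). With 1 library left out, the count was 1 without restricted 1, restricted 3 or restricted 4 and 2 without normal 1, and 0 otherwise. The shares of all genes called were 3.76%, 1.87%, 3.75%, 2.43% and 3.8% without restricted 1, 2, 3, 4 and 5 in turn, and 3.35%, 2.89%, 2.14%, 1.83% and 1.72% without normal 1, 2, 3, 4 and 5 in turn.

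**Figure D2:**
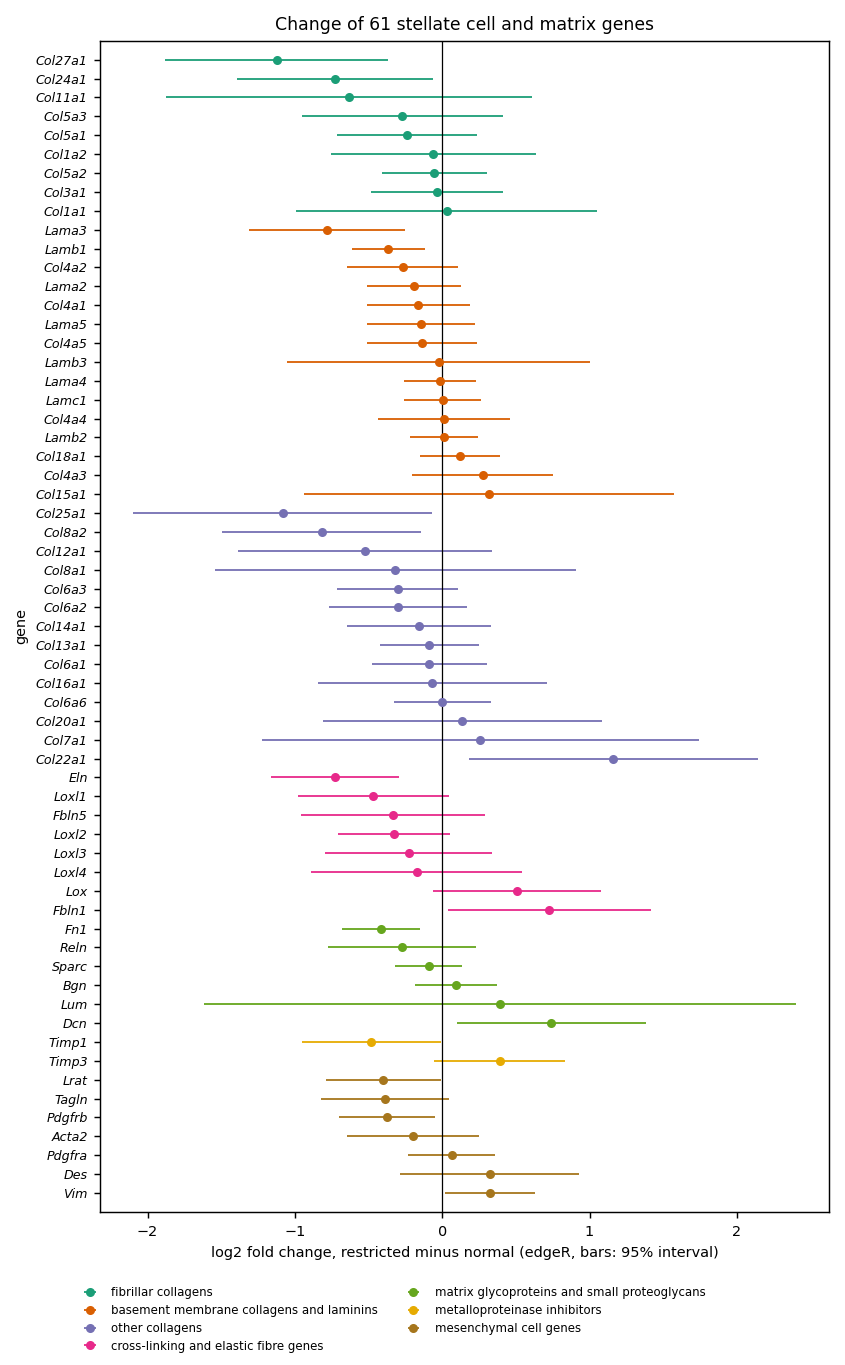
Log2 fold change of restricted minus normal for 61 of the 62 genes, in colours by role, with 95% intervals from edgeR. Most points lie left of 0 (41 of the 61 shown), and 0 of 62 passed an adjusted p of 0.05.

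Fibrillar collagens, the rope-like chains that make up scar, did not pass the test, and their values varied widely within the restricted group. Col3a1 (ENSRNOG00000003357), the chain of type III collagen, had 822, 728, 1236, 476 and 701 CPM in restricted 1 to 5 and 662, 814, 888, 916 and 788 CPM in normal 1 to 5. The restricted libraries lay on both sides of the normal range, restricted 3 above it and restricted 4 below it. For Col3a1 the log2 fold change was −0.04 (95% interval −0.49 to 0.41), an interval from 0.714-fold to 1.33-fold. Col1a1, a chain of type I collagen, the most abundant collagen of scar, had 112, 140, 240, 25.3 and 110 CPM in restricted 1 to 5, against 117, 96.2, 151, 124 and 126 CPM in normal 1 to 5. Its partner Col1a2 had 156, 137, 274, 64.4 and 112 CPM in restricted 1 to 5 and 134 to 192 CPM in normal libraries. In restricted 4 both chains were at their lowest of the 10 libraries, and Col1a1 was the further below. The FPKM ratio of Col1a2 over Col1a1 was 6.38 in restricted 4, 2.44 to 3.50 in the other restricted libraries and 2.88 to 3.84 in the normal ones. For Col1a1 the log2 fold change was 0.03, with an interval of −0.99 to 1.05, which spans 0.503-fold to 2.07-fold.

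Col27a1, a collagen known from cartilage and expressed at modest levels here, had the lowest log2 fold change of the 62 genes. It had 12.7, 11.1, 11.2, 3.48 and 10.6 CPM in restricted 1 to 5 and 10.1, 23.4, 28.0, 21.7 and 24.3 CPM in normal 1 to 5. Restricted libraries lay below 4 of the normal ones, and normal 1 lay among them. Its log2 fold change was −1.13 ± 0.34 (SE; p 0.00778, adjusted p 0.101 in edgeR). The adjusted p was 0.0448 without normal 1 and above 0.05 with any other library left out. DESeq2 gave an adjusted p of 0.00904, and restricted 5 alone against the normal libraries gave a log2 fold change of −1.02. Col24a1, another minor fibrillar chain, had 8 to 29 counts in restricted and 18 to 24 counts in normal libraries, and its log2 fold change was −0.73 (adjusted p 0.208). Col11a1, also minor, had 1 to 18 counts in restricted and 5 to 21 counts in normal libraries. The type V chains, which start fibrils and set their width, had log2 fold changes of −0.24 for Col5a1, −0.05 for Col5a2 and −0.27 for Col5a3. Of the 9 fibrillar chains, 8 were negative, with a median of −0.24.

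**Figure D3:**
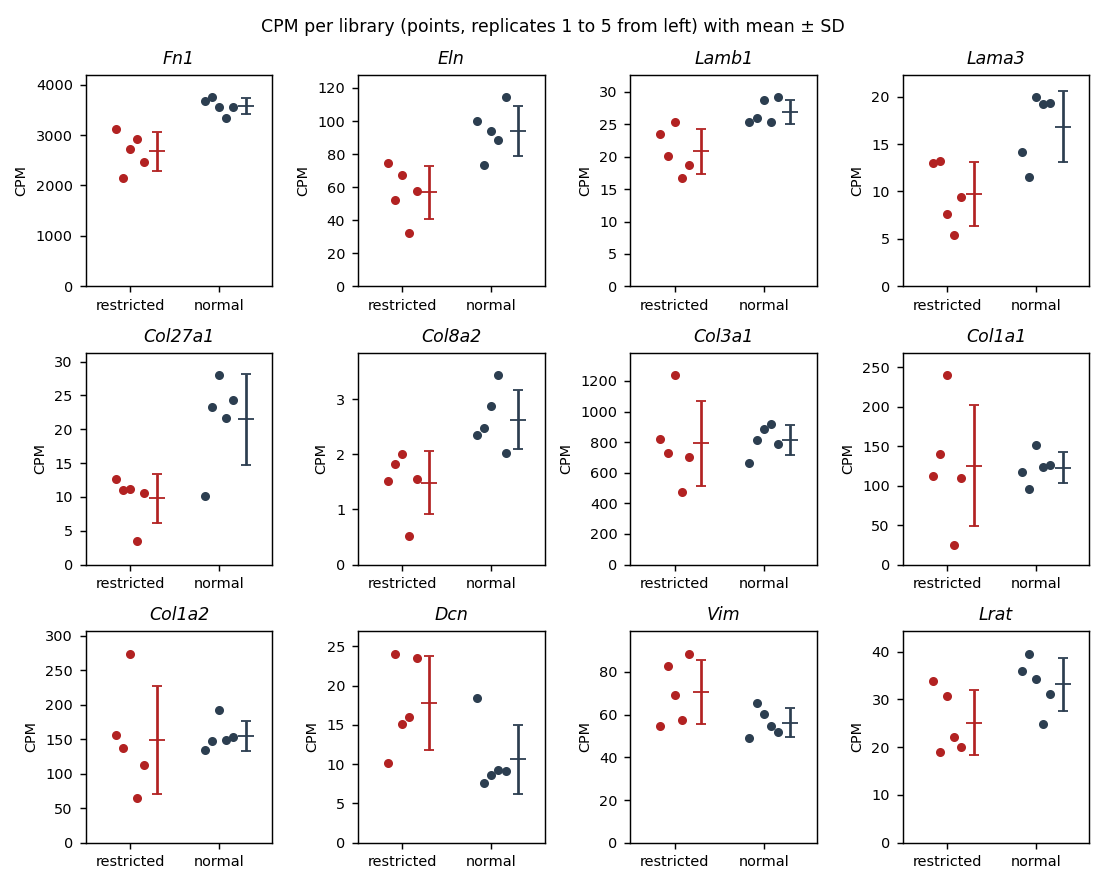
CPM of 12 genes in each library, with 1 point per library (replicates 1 to 5 from left), red for restricted and dark for normal, and mean ± SD beside them. Fn1 and Lamb1 do not overlap between the groups, and for Col1a1 the restricted points run from 25.3 to 240 CPM around a similar mean.

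Laminins, the cross-shaped proteins that seed basement membranes, had the smallest p-values of the basement membrane genes, short of the threshold. Lama3, a chain of epithelial laminin-332, had 13.0, 13.2, 7.67, 5.38 and 9.41 CPM in restricted 1 to 5 and 14.2, 11.5, 19.9, 19.2 and 19.3 CPM in normal 1 to 5. All 5 restricted libraries lay below the normal mean, with overlap at normal 2. The log2 fold change was −0.78 ± 0.24 (SE; adjusted p 0.100 in edgeR, 0.0293 in DESeq2). Lamb1, a chain of the widespread laminins, had 23.5, 20.1, 25.3, 16.8 and 18.8 CPM in restricted 1 to 5 and 25.4, 26.0, 28.7, 25.4 and 29.2 CPM in normal 1 to 5. Every restricted library lay below every normal one, by a small margin for restricted 3. Its log2 fold change was −0.37 ± 0.12 (SE; adjusted p 0.0989), and without restricted 3 it was −0.44 (adjusted p 0.0479). With any other library left out the adjusted p of Lamb1 was above 0.05. Lamb3, the beta chain of laminin-332, had 1.18 to 1.78 CPM in restricted and 0.396 to 3.14 CPM in normal libraries. For Lamc1, the gamma chain shared by most laminins, the means were 70.1 ± 12.0 CPM in restricted and 69.9 ± 7.18 CPM in normal libraries (SD, n = 5 each), with an interval of −0.26 to 0.27. Lama2, Lama4, Lama5 and Lamb2, chains of other laminins, had log2 fold changes of −0.19, −0.01, −0.15 and 0.01.

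Collagens of the basement membrane zone did not pass the test either. Col18a1, the precursor of the angiogenesis inhibitor endostatin, had 946, 907, 1212, 1243 and 877 CPM in restricted 1 to 5 and 853 to 1017 CPM in normal libraries, with an interval of −0.15 to 0.40. Restricted 4, low for most chains, had the highest Col18a1 of the 10 libraries. Col4a1 had 176, 144, 190, 100 and 121 CPM in restricted 1 to 5 and 138 to 186 CPM in normal libraries, and Col4a2 had 133, 102, 145, 73.2 and 81.7 CPM in restricted 1 to 5 and 116 to 142 CPM in normal libraries. Both chains were lowest in restricted 4 and next lowest in restricted 5, below every normal library. The log2 fold changes were −0.16 (adjusted p 0.615) and −0.27 (adjusted p 0.407). Restricted 5 alone against the normal libraries gave a log2 fold change of −0.66 for Col4a2. Col4a3, Col4a4 and Col4a5, the chains of specialised basement membranes, had log2 fold changes of 0.28, 0.01 and −0.14, and Col15a1 had 1 to 32 counts in restricted and 4 to 18 counts in normal libraries.

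Among the other collagens Col8a2 and Col22a1 stood apart, both at low counts. Col8a2, a short-chain collagen of vessel and cornea membranes, had 1.51, 1.83, 2.0, 0.525 and 1.56 CPM in restricted 1 to 5 and 2.35, 2.48, 2.88, 3.43 and 2.02 CPM in normal 1 to 5. The groups did not overlap, narrowly, and on the log2 scale the difference was −0.82 ± 0.31 (SE; adjusted p 0.166). Col22a1, a collagen of tissue junctions, had 1.43, 2.59, 2.0, 1.51 and 6.73 CPM in restricted 1 to 5 and 1.77, 0.827, 1.74, 1.19 and 0.809 CPM in normal 1 to 5. Its log2 fold change of 1.16 (adjusted p 0.177) rested on restricted 5. It was 0.57 without that library (adjusted p 0.391) and 2.40 for that library alone against the normal ones. With Kdm5d as a covariate, a fit that rests mainly on that library, it was 2.47 (adjusted p 0.0315). Col25a1 had 3 to 16 counts in restricted and 9 to 23 counts in normal libraries, and its log2 fold change was −1.08 (adjusted p 0.219).

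Col14a1, a fibril-associated collagen, had 155, 79.0, 168, 98.4 and 70.6 CPM in restricted 1 to 5 and 123 to 138 CPM in normal libraries. Restricted 1 and 3 lay above the normal range, and restricted 2, 4 and 5 below it. Restricted 5 alone gave a log2 fold change of −0.85, against −0.16 over all libraries (adjusted p 0.733). The type VI chains, which form beaded filaments around cells, had log2 fold changes of −0.09 for Col6a1, −0.30 for Col6a2, −0.30 for Col6a3 and 0.00 for Col6a6, and the first 3 of these were lowest in restricted 4. Col12a1 and Col8a1 had 3.21 and 0.919 CPM in restricted 4, against 8.90 to 18.1 and 3.17 to 7.49 CPM in normal libraries. The remaining Col7a1, Col13a1, Col16a1 and Col20a1 had log2 fold changes of 0.26, −0.09, −0.07 and 0.14, and Col7a1 had a count of 0 in normal 2, where up to 0.191 CPM remains possible.

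Elastic fibre and cross-linking genes gave the smallest p of the 62, for elastin. Eln, the core protein of elastic fibres, had 74.4, 52.1, 67.6, 32.0 and 57.9 CPM in restricted 1 to 5 and 100.02, 73.7, 93.7, 88.6 and 114 CPM in normal 1 to 5. Restricted libraries lay below the normal ones except for restricted 1, which was just above normal 2. The log2 fold change was −0.73 ± 0.20 (SE; p 0.00346, adjusted p 0.0673 in edgeR), or 0.604-fold with an interval of 0.447 to 0.816. The adjusted p was 0.0432 without restricted 1 and above 0.05 with any other library left out, as with 0.0530 without restricted 4. It was 0.00888 in DESeq2. Restricted 5 alone gave a log2 fold change of −0.70. Fbln5, which tethers elastin to cells, had 9.74 ± 4.43 CPM in restricted and 12.3 ± 3.32 CPM in normal libraries (SD, n = 5 each; adjusted p 0.543). Fbln1, another fibulin, had 5.48, 6.26, 4.35, 1.71 and 6.35 CPM in restricted 1 to 5 and 4.19, 2.48, 2.74, 2.05 and 3.17 CPM in normal 1 to 5. Restricted 4 was lowest of all, and the other 4 restricted libraries lay above every normal one. For Fbln1 the log2 fold change was 0.73 (adjusted p 0.224), and 0.95 without restricted 4 (adjusted p 0.0485). With any other library left out its adjusted p was above 0.05.

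Lysyl oxidases, the copper enzymes that cross-link collagen and elastin, did not pass the test, and the log2 fold change was positive for Lox and negative for Loxl1 to Loxl4. Lox itself had 3.52, 5.23, 4.56, 2.56 and 5.11 CPM in restricted 1 to 5 and 1.72 to 4.28 CPM in normal libraries (log2 fold change 0.50, adjusted p 0.304). Loxl1, which acts on elastic fibres, had 4.11 ± 1.24 CPM in restricted and 5.71 ± 1.24 CPM in normal libraries (SD, n = 5 each; adjusted p 0.287). Loxl2 had 55.6 ± 13.0 CPM in restricted and 69.8 ± 11.9 CPM in normal libraries (SD, n = 5 each; adjusted p 0.320). Both Loxl1 and Loxl2 were lowest in restricted 4, while Loxl4 had 50.7 CPM there, the highest of the restricted libraries. For Loxl3 and Loxl4 the log2 fold changes were −0.23 and −0.17.

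Fn1, fibronectin, the glycoprotein that links cells to collagen and circulates in plasma, separated the groups completely. It had 3129, 2140, 2714, 2931 and 2467 CPM in restricted 1 to 5 and 3666, 3750, 3563, 3345 and 3547 CPM in normal 1 to 5. Every restricted library lay below every normal one. In edgeR the difference was −0.42 ± 0.12 on the log2 scale (SE), or 0.749-fold with a 95% interval of 0.623 to 0.901. Its p was 0.00495 and its adjusted p 0.0814, and DESeq2 gave an adjusted p of 0.00367. Restricted 5 alone gave a log2 fold change of −0.53. Fn1 is made by hepatocytes as well as by stellate cells, and these libraries do not separate the sources. Of the 10 hepatocyte markers, 1 passed the test (10%, against 4.09% of all genes). Ttr, the carrier of thyroid hormone and retinol-binding protein, fell to 3649 ± 868 CPM in restricted libraries, against 5979 ± 1159 CPM in normal ones (SD, n = 5 each; adjusted p 0.0497 in edgeR). Ttr had an adjusted p of 0.0185 without restricted 3 and 0.0343 without normal 1, and 0.0722 to 0.131 without any one of the other 8 libraries. It was 0.0503 with RLE scaling, 0.0505 in limma-voom and 0.00267 in DESeq2. With Kdm5d as a covariate the adjusted p of Ttr was 0.163, and restricted 5 alone gave a log2 fold change of −0.98.

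The small proteoglycans, which coat collagen fibrils, and the other glycoproteins did not pass either. Dcn, decorin, had 10.1, 24.1, 15.1, 15.9 and 23.5 CPM in restricted 1 to 5 and 18.4, 7.64, 8.63, 9.25 and 9.17 CPM in normal 1 to 5. All restricted libraries lay above 4 of the normal ones, and normal 1 stood among the restricted values. Its log2 fold change was 0.74 ± 0.29 (SE; adjusted p 0.187), and 1.03 without normal 1 (adjusted p 0.0425). Lum, lumican, had 7, 82, 5, 0 and 56 counts in restricted 1 to 5 and 30, 31, 15, 10 and 14 counts in normal 1 to 5, and up to 0.197 CPM remains possible in restricted 4. Its high libraries were restricted 2 and 5, and its interval of −1.62 to 2.40 covers changes in both directions. Bgn, biglycan, had 191 ± 36.8 CPM in restricted and 179 ± 16.3 CPM in normal libraries, and Sparc, a collagen-binding matricellular protein, had 328 ± 40.1 CPM in restricted and 350 ± 27.1 CPM in normal libraries (SD, n = 5 each). The intervals of −0.19 to 0.37 for Bgn and −0.32 to 0.14 for Sparc were among the narrow ones of the set.

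Reln, a secreted glycoprotein that marks quiescent stellate cells in rodent liver, had 119, 67.5, 124, 87.1 and 46.4 CPM in restricted 1 to 5 and 106, 104, 118, 105 and 103 CPM in normal 1 to 5. Restricted 2, 4 and 5 lay below every normal library, and restricted 1 and 3 above every normal one. Its log2 fold change was −0.27 (adjusted p 0.541), and restricted 5 alone gave −1.21. The SD of Reln was 33.3 CPM in restricted and 6.26 CPM in normal libraries (n = 5 each). Reln and Col14a1 were low in restricted 2, 4 and 5, whose Kupffer cell sums were 1974, 1340 and 2559 CPM, against 1030 and 1082 CPM in restricted 1 and 3. The part of other cell types in these values was not tested.

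Timp1, an inhibitor of matrix metalloproteinases that activated stellate cells secrete, had 2.90, 3.78, 4.49, 2.23 and 3.68 CPM in restricted 1 to 5 and 4.25, 4.14, 5.49, 6.14 and 3.77 CPM in normal 1 to 5. The restricted values lay below the normal mean in all 5 libraries, with overlap. Its log2 fold change was −0.48 (adjusted p 0.241) and its counts were 34 to 93 per library. Timp3, a matrix-bound inhibitor, had 10.6 ± 2.99 CPM in restricted and 8.11 ± 1.78 CPM in normal libraries (SD, n = 5 each; log2 fold change 0.39, adjusted p 0.306).

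Markers of the mesenchymal cells themselves did not pass. Lrat, the enzyme that esterifies retinol in stellate cells, had 33.9, 18.9, 30.8, 22.0 and 20.0 CPM in restricted 1 to 5 and 36.0, 39.6, 34.3, 24.8 and 31.2 CPM in normal 1 to 5. Restricted 2, 4 and 5 lay below every normal library, as for Reln, and the log2 fold change was −0.40 (adjusted p 0.236). Pdgfrb, the receptor for the main growth factor of stellate cells, had 35.9 ± 6.65 CPM in restricted and 46.6 ± 8.46 CPM in normal libraries (SD, n = 5 each; log2 fold change −0.38, adjusted p 0.182). Pdgfra, the related receptor, had an interval of −0.23 to 0.36. Des, the muscle filament desmin that marks rat stellate cells, had 4.68, 5.12, 4.42, 2.49 and 7.29 CPM in restricted 1 to 5 and 2.61 to 5.75 CPM in normal libraries (adjusted p 0.553).

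Acta2, smooth muscle actin and the usual sign of activated stellate cells, had 6.42, 7.44, 4.08, 5.77 and 9.91 CPM in restricted 1 to 5 and 7.72, 8.34, 8.76, 7.79 and 6.0 CPM in normal 1 to 5. The groups overlapped, with a log2 fold change of −0.20 and an interval of −0.65 to 0.25. Tagln, another contractile protein of smooth muscle, had 10.2 ± 2.27 CPM in restricted and 13.4 ± 3.74 CPM in normal libraries (SD, n = 5 each; adjusted p 0.299). Vim, the filament vimentin of mesenchymal and immune cells, had 54.8, 82.6, 69.0, 57.4 and 88.5 CPM in restricted 1 to 5 and 48.9, 65.6, 60.1, 54.6 and 52.0 CPM in normal 1 to 5. Its high libraries were again restricted 2 and 5. For Vim the log2 fold change was 0.32 (adjusted p 0.217), 0.23 without restricted 5 (adjusted p 0.380) and 0.65 for restricted 5 alone.

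Restricted 4 stood apart from the other libraries in these genes. It held the lowest CPM of the 10 libraries for 33 of the 62 genes, or 53.2%, whereas it did so for 14.9% of all genes tested. Among fibrillar collagens it was the lowest for 8 of 9. The 9 chains summed to 644 CPM in restricted 4, against 1018 to 1931 CPM in the other restricted libraries and 1043 to 1395 CPM in the normal ones. Restricted 3 held the highest CPM for 20 of the 62 genes, or 32.3%, against 11.6% of all genes, and for 5 of the 9 fibrillar chains. The median difference from the normal mean over the 62 genes was −0.68 (log2 CPM) in restricted 4 and 0.19 in restricted 3, and −0.22 to −0.01 in the other restricted libraries. For the 17 further stellate cell markers the sum in restricted 4, 935 CPM, was the highest of the restricted group. Normal libraries summed to 875 to 1048 CPM. Single markers differed: Lhx2, Colec11 and Steap4 had their highest CPM of the 10 libraries in restricted 4. Cygb, Hhip, Tcf21 and Pth1r had their lowest there. Over the further stellate cell markers the median difference from the normal mean was −0.11 in restricted 4. It was −0.12 to 0.07 in the other restricted libraries (log2 CPM). The libraries were singled out after the values were seen.

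**Figure D4:**
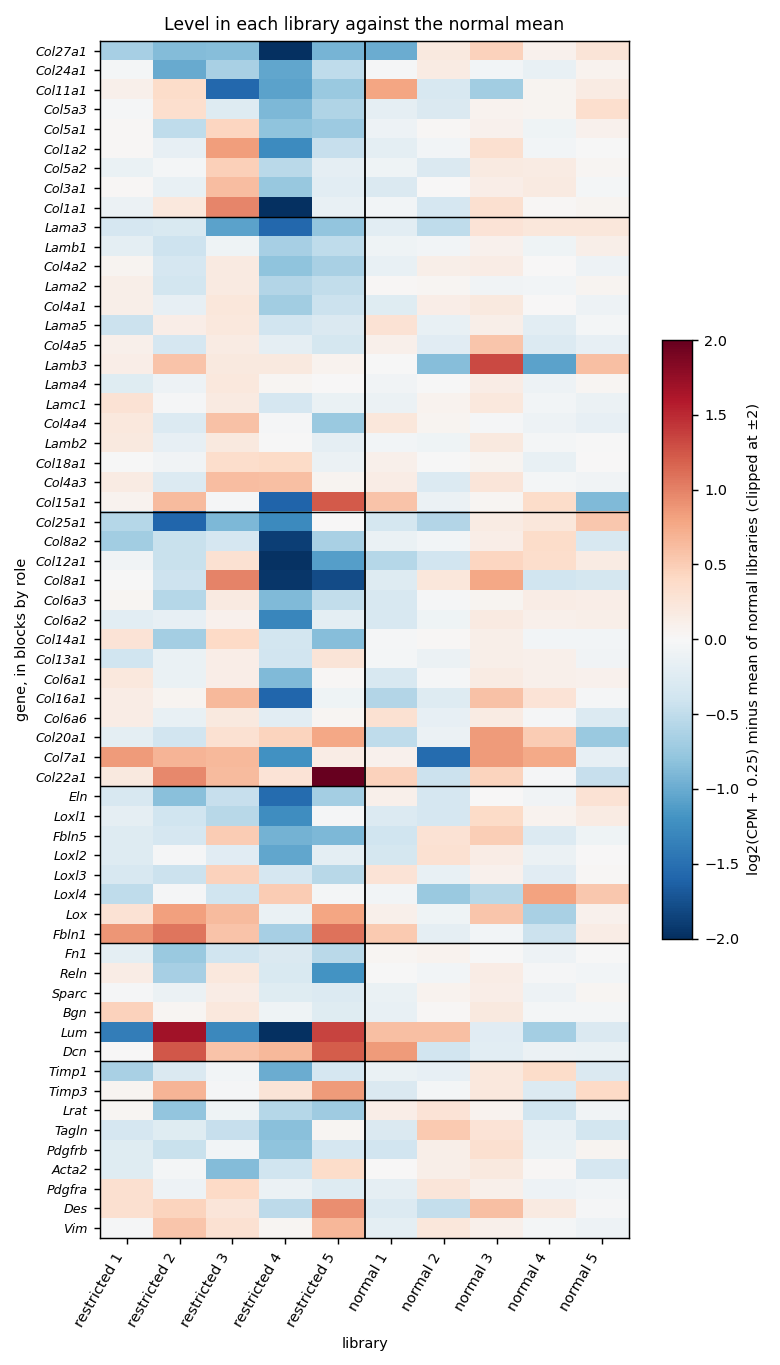
Level of 61 of the 62 genes in each library as log2(CPM + 0.25) minus the mean of the normal libraries, blue below and red above, in blocks by role, with restricted libraries at left. The column of restricted 4 is blue for most genes, with a median of −0.68 in log2 CPM over all 62, and restricted 3 is mostly pale red.

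The spread between libraries was larger in the restricted group for most of these genes. The SD of log2 CPM was larger in the restricted than in the normal group for 54 of 62 genes (87.1%), against 66.1% of all genes tested, and the median SD was 0.45 in restricted and 0.24 in normal libraries. For the fibrillar chains the median SD was 0.53 in restricted and 0.19 in normal libraries. Without restricted 4 the count was 40 of 62 (64.5%), against 61.2% of all genes, so the difference from other genes rested on that library.

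**Figure D5:**
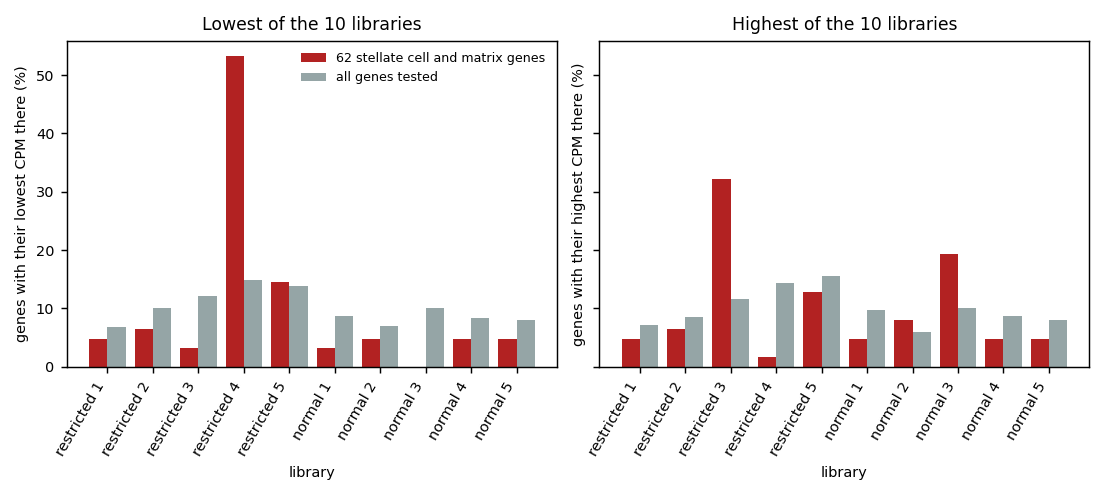
Share of genes whose lowest (left) or highest (right) CPM of the 10 libraries falls in each library, red for the 62 stellate cell and matrix genes and grey for all genes tested. Restricted 4 holds the lowest value for 53.2% of the 62 genes, and restricted 3 the highest for 32.3%.

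Of 17 matrix-degrading proteases tested, 1 passed in edgeR (5.88%, against 4.09% of all genes), and 6 had an unadjusted p under 0.05 (35.3%, against 20.1% of all genes), 4 higher and 2 lower. The gene that passed was lower: Mmp19, a metalloproteinase of basement membrane proteins, had 52.7, 51.1, 54.4, 59.9 and 54.2 CPM in restricted 1 to 5 and 70.0, 64.3, 66.9, 85.0 and 72.2 CPM in normal 1 to 5. Every restricted library lay below every normal one, and Mmp19 fell by 0.40 ± 0.09 on the log2 scale (SE; adjusted p 0.0305 in edgeR). Its adjusted p was 0.0556 without restricted 1, 0.0780 without restricted 2, 0.0735 without normal 4 and 0.0739 without normal 5. With Kdm5d as a covariate it was 0.231, and restricted 5 alone gave a log2 fold change of −0.40. Mmp2, a gelatinase of stellate cells, had 21.8 ± 5.80 CPM in restricted and 29.3 ± 3.21 CPM in normal libraries, and Adamts5, a proteoglycan-cleaving enzyme, had 3.7 ± 0.560 CPM in restricted and 2.17 ± 0.619 CPM in normal libraries (SD, n = 5 each; adjusted p 0.165 and 0.0831 in edgeR). DESeq2 called 2 of the 17 (11.8%, against 8.48% of all genes), Mmp19 and Adamts5 (adjusted p 0.00274 and 0.0256).

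Collagen folding and processing genes gave 0 calls among 21 tested in edgeR, with 4 at an unadjusted p under 0.05, 2 higher and 2 lower (19%, against 20.1% of all genes). Serpinh1, the collagen chaperone HSP47, had 42.4 ± 7.51 CPM in restricted and 54.6 ± 3.93 CPM in normal libraries (SD, n = 5 each; adjusted p 0.101, and 0.0429 without restricted 3). With any other library left out the adjusted p of Serpinh1 was above 0.05, as with 0.192 without restricted 2. The log2 fold change of Serpinh1 was −0.37 over all libraries, and restricted 5 alone gave −0.64. TGF-beta and PDGF signalling genes, which drive stellate cell activation, gave 0 calls among 24 in edgeR, with 2 at an unadjusted p under 0.05, both higher (8.33%, against 20.1% of all genes). These were Smad4, a signal transducer, at 0.22 (adjusted p 0.113), and the receptor gene Tgfbr2 at 0.29 (adjusted p 0.131). DESeq2 called 1 of the 24, Tgfbr2 (adjusted p 0.0461), or 4.17%, against 8.48% of all genes. Matrix receptors gave 0 calls among 23 in edgeR, with 4 at an unadjusted p under 0.05, 2 higher and 2 lower (17.4%, against 20.1% of all genes). DESeq2 called 2 of the 23, Itga6 and Cd44 (8.7%, against 8.48% of all genes). Itga6, an integrin chain that binds laminin, had 18.6 ± 5.14 CPM in restricted and 29.5 ± 7.33 CPM in normal libraries (SD, n = 5 each; adjusted p 0.110 in edgeR and 0.0372 in DESeq2). Cd44, a hyaluronan receptor also found on leukocytes, had 3.48, 13.8, 2.76, 4.86 and 13.7 CPM in restricted 1 to 5 and 2.55 to 4.90 CPM in normal libraries, with its high values in restricted 2 and 5. For Cd44 the adjusted p was 0.177 in edgeR and 0.0462 in DESeq2, and restricted 5 alone gave a log2 fold change of 2.06.

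Other basement membrane and matrix genes gave 0 calls among 23 in edgeR, with 3 at an unadjusted p under 0.05, all lower (13%, against 9.93% of all genes that were lower). A negative log2 fold change was found for 18 of 23 (78.3%, against 47.7% of all genes), with a median of −0.21 beside 0.01 over all genes. Fbn2, a fibrillin of the microfibrils on which elastin is laid, had 2.59 ± 1.04 CPM in restricted and 5.20 ± 1.35 CPM in normal libraries (SD, n = 5 each; adjusted p 0.0876, and 0.0221 in DESeq2). It was the only one of the 23 that DESeq2 called (4.35%, against 8.48% of all genes). Emilin1, an elastic fibre glycoprotein, had 68.6 ± 12.5 CPM in restricted and 86.7 ± 5.47 CPM in normal libraries (SD, n = 5 each; adjusted p 0.126, and 0.0263 without restricted 3). With any other library left out the adjusted p of Emilin1 was above 0.05, as with 0.240 without restricted 2. Of the further stellate cell markers 0 of 16 passed in edgeR, with 1 at an unadjusted p under 0.05 (6.25%, against 20.1% of all genes). This was Pth1r, the parathyroid hormone receptor, with 23.3 ± 1.3 CPM in restricted and 28.9 ± 2.21 CPM in normal libraries (SD, n = 5 each). Its adjusted p was 0.0580 in edgeR, 0.0462 with upper-quartile scaling and 0.0212 in DESeq2. Pth1r was the only one of the 16 that DESeq2 called (6.25%, against 8.48% of all genes). Of 11 smooth muscle and portal fibroblast markers 0 passed in edgeR, and 3 had an unadjusted p under 0.05, all lower (27.3%, against 9.93% of all genes that were lower). The log2 fold change was positive for 7 of the 11 and negative for 4, with a median of 0.13. DESeq2 called 2 of the 11, Myl9 and Smtn (18.2%, against 8.48% of all genes). Among them Myl9, a myosin light chain of smooth muscle, had 12.8 ± 2.43 CPM in restricted and 18.3 ± 1.65 CPM in normal libraries (SD, n = 5 each; adjusted p 0.0559 in edgeR, 0.0470 with upper-quartile scaling and 0.0170 in DESeq2). For Smtn, a smooth muscle protein, the adjusted p was 0.0318 in DESeq2.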

How the data were processed

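TRIpure extraction and an NEBNext Ultra library kit were used, per the labels' protocols. Reads were handled with bcl2fastq, fastp and HTSeq on build rn7, per the submitters' processing notes, after a Q30 filter and HISAT2 alignment, per the series' design text. The sources used here do not state versions, annotation, strand setting or the handling of reads shared between genes. Per the file headers, the deposited table holds raw counts per gene and FPKM, the authors' values scaled by depth and gene length. It also holds the authors' deposited fold ratio, its log2 value, and the p-value and adjusted p-value of their own test. The gene lengths implied by counts and FPKM ran from 874 to 33490 bases over the 62 genes, with 22856 for Col1a1 and 32556 for Fn1, longer than the mature mRNAs of those genes are known to be, so levels of different genes are not ranked.

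A model of the counts over the whole table was fitted in edgeR 4.0.16 (R 4.3.3). filterByExpr (minimum count 10) kept 12367 of 12555 genes, libraries were scaled by TMM, and a two-sided quasi-likelihood test was adjusted by Benjamini-Hochberg, with 0.05 as the threshold. Intervals are 95% intervals of the fit. Floors of 3 counts per library cover counting error only. The alternatives tried were DESeq2 1.42.0, limma-voom (limma 3.58.1), scaling by RLE or upper quartile, no filter or one of 1 CPM in 5 libraries, a replicate block, Kdm5d as a covariate, restricted 5 alone against the normal libraries, and each library left out. Labels do not say that libraries came from separate animals, so p-values reflect only how these libraries vary, which may be technical. Every pair of libraries in a group differed by more than counting error (chi-square per degree of freedom at least 21.2).

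The members and lists were chosen with earlier results of these data known. Named by rule are any member past the threshold and, in each role, the 3 genes highest in FPKM and the 3 with the smallest p, 9 fixed genes, and up to 3 genes of each further list with the smallest p. Other genes are given to account for the rest of the 62, or were chosen after their values were seen. The values of 1 of the 62 are not reported here, though it is included in the counts and medians.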

Additional observations from a re-analysis of the deposited data

Results flagged for a closer look

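In 4 of 72 sets of 5 libraries (36 named genes in each group) 1 library lay far from the rest by Dixon's criterion, and chance alone gives about 1 in 20. Col27a1 was low in restricted 4, with 3.48 CPM, against 10.6 to 12.7 CPM in the other restricted libraries. Col22a1 was high in restricted 5, with 6.73 CPM, against 1.43 to 2.59 CPM in the other restricted libraries. Dcn was high in normal 1, with 18.4 CPM, against 7.64 to 9.25 CPM in the other normal libraries. Reln was high in normal 3, with 118 CPM, against 103 to 106 CPM in the other normal libraries, a small difference within a narrow group.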

How the results depend on the processing

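The count of 0 among the 62 genes held under RLE and upper-quartile scaling, limma-voom, both filters and the replicate block. It was 4 with DESeq2, 1 with Kdm5d as a covariate (Col22a1), 6 for restricted 5 alone against the normal libraries (Col22a1 and Vim higher, Reln, Col14a1, Col5a1 and Col4a2 lower), and 0 to 2 with a library left out. Over all genes, 506 passed, 1049 with DESeq2, 265 with the replicate block, 121 with the covariate, 802 for restricted 5 alone, and 213 to 470 with a library left out. The 15 genes at an unadjusted p under 0.05 were 25 for restricted 5 alone and 9 to 18 with a library left out. The cause of these differences was not tested. The median log2 fold change of the 62 was −0.27 to −0.07 over all alternatives. The count of genes more variable in the restricted group, 54, was 40 to 55 with a library left out, a check added after the data were seen. Same-numbered libraries of the groups correlated at −0.19 to 0.12 in their deviations, so the numbers do not pair them; with the block the adjusted p was 0.0509 for Mmp19 and 0.0815 for Ttr. Restricted 5 alone is a single library, assumed to vary like the normal ones, so only its log2 fold changes are given. The 62 genes varied more in the restricted group, with a median SD of log2 CPM of 0.45 against 0.24. With Kdm5d as a covariate the fit rests mainly on restricted 5 too. Counts of at most 32 per library, as for Col7a1, Col11a1, Col15a1, Col24a1 and Col25a1, limit what could be detected.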
